A study of Homo sapiens with 6 samples.

Results

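Aminoacyl-tRNA synthetase genes were examined in SK-N-BE(2), an established human neuroblastoma cell line, after knockdown of Prp19. The genes were chosen by symbol alone, as protein-coding genes named with the single-letter code of an amino acid followed by ARS. The letter of glutamate was left out of the pattern, only some final digits were allowed, and FARSA and FARSB were added. This gave 35 genes among 58302 gene identifiers, of which 19817 are protein-coding in GENCODE 29. Symbols ending in 2 were taken as mitochondrial (16 genes) and the others as cytosolic (19 genes). EPRS1, EARS2 and TARS3 also encode synthetases, but their symbols fell outside the pattern, so their values are given separately. The cells were transfected with siRNA against Prp19 (siPrp19, 3 libraries) or with a control labelled NC (3 libraries), and the labels give 72 h of transfection for both groups and 3 µg of RNA per library, while the study's methods give a shorter transfection. Both groups came from the same parental line, and the study calls the samples biological replicates. The labels do not say whether they were separate cultures, and p-values measure the spread between these libraries. Prp19, encoded by PRPF19, is an E3 ubiquitin ligase and a core component of the spliceosome.

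Each aminoacyl-tRNA synthetase joins an amino acid to its matching tRNA, the step that sets which amino acid a codon receives. Cytosolic and mitochondrial translation mostly use separate nuclear genes, while GARS1 and KARS1 each encode both forms. Several of the cytosolic enzymes, among them IARS1, KARS1, LARS1, MARS1, QARS1, RARS1 and the bifunctional EPRS1, assemble with the scaffold proteins AIMP1, AIMP2 and EEF1E1 into the multisynthetase complex. Many synthetase genes are known targets of ATF4, the transcription factor induced when amino acids are scarce, and the enzymes fall into class I and class II by the fold of the catalytic domain.

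Promoter sequences are shown first because 1 element recurred among the cytosolic genes. RefSeq promoters of GRCh38.p14, from 250 bases before to 50 bases after the start, were matched for 28 of the 35 genes. The ATF4-C/EBP composite element, searched as TGATGNAA on both strands, was present in 6 of 15 cytosolic promoters and in 1 of 13 mitochondrial promoters, against 3.67% of all 27305 promoters. The matches follow 5′ to 3′ on the strand of the gene with 8 bases on each side, and capitals mark the element.
AARS1, chr16:70289678-70289701, minus strand: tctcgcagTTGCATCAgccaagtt
CARS1, chr11:3057410-3057433, minus strand: ggcggcggTTGCATCAgattctag
IARS1, chr9:92293695-92293718, minus strand: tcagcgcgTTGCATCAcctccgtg
MARS1, chr12:57488056-57488079, plus strand: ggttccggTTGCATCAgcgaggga
NARS1, chr18:57621807-57621830, minus strand: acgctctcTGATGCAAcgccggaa
TARS1, chr5:33440959-33440982, plus strand: cctttcgaTTGCATCAgctggtcc
YARS2, chr12:32756079-32756102, minus strand: cacactgcTGATGGAAaaattaag
The 6 cytosolic matches all read TTGCATCA or its reverse complement TGATGCAA, while the match of YARS2 reads TGATGGAA. The elements of CARS1, IARS1, MARS1, NARS1 and TARS1 began within 15 bases of the start, and those of AARS1 and YARS2 began upstream, at -187 and -197 counted from it.

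Elements of other factors were spread over both compartments. The NRF1 element, for a factor known for nuclear genes of mitochondrial function, was searched on both strands with 1 base left free and occurred in 3 of 15 cytosolic promoters (FARSB, SARS1, TARS1) and in 3 of 13 mitochondrial promoters, against 6.28% of all promoters. The mitochondrial matches nearest the start are shown in the same way.
IARS2, chr1:220094108-220094133, plus strand: ctcccggaGCGCGTGCGCcctcttac
MARS2, chr2:197705334-197705359, plus strand: acccggctGCGCATGCGCctctcaca
PARS2, chr1:54764503-54764528, minus strand: tgctcgagGCGCAAGCGCgctggccc
The ETS element CCGGAAGT, also searched on both strands, was found in 6 of the 28 promoters (CARS1, HARS1, NARS1, WARS1, HARS2, PARS2) against 4.44% of all promoters. HARS1 and HARS2 lie head to head, so their promoters hold the same 2 matches. The E-box CACGTG, bound by MYC family factors, was found in 3 of the 28 (CARS2, IARS1, MARS2) against 7.43% of all promoters. These matches describe letters in the reference and do not show binding in SK-N-BE(2) cells.

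The libraries held 19058782 to 21943936 reads on genes in NC and 22273026 to 24181789 in siPrp19, as recovered from the deposited FPKM. These values are fragment counts scaled to exon length and to a factor for each library. PRPF19, the targeted gene, was at 53.1, 53.1 and 64.9 FPKM in the NC libraries and at 21.8, 28.5 and 33.6 FPKM in the siPrp19 libraries. All siPrp19 libraries lay below all NC libraries, and the siPrp19 mean was 49.0% of the NC mean (exact two-sided permutation p = 0.1, the smallest that 3 against 3 libraries allow). Of the 8 neuroblastoma markers examined, all were detected in every library, with summed levels of 2011 to 2129 FPKM in NC and 1896 to 2438 FPKM in siPrp19. The noradrenergic enzyme gene DBH stood apart by replicate number, at 3.49 and 3.94 FPKM in the replicate 3 libraries against 26.7 to 44.2 FPKM in the others. The summed levels of 5 immune markers (0.672 to 1.56 FPKM, with CD3E at 0) and of 5 epithelial markers (1.71 to 2.07 FPKM in NC and 2.17 to 3.02 FPKM in siPrp19, with KRT5 at 0) were low. The epithelial sum was higher in siPrp19 without overlap, with EPCAM at 1.75, 1.78 and 1.34 FPKM in NC and 2.48, 1.79 and 2.00 FPKM in siPrp19, and its part in the synthetase values was not tested. Of 6 mesenchymal markers, COL1A2 was near 0 and the summed level was 129.7 to 151.4 FPKM in NC and 119.995 to 147.8 FPKM in siPrp19. In bulk RNA, fewer cells of a type and less RNA per cell cannot be told apart.

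Cytosolic synthetase genes were expressed at higher levels than mitochondrial ones. The median of the mean FPKM over the 6 libraries was 31.1 for the cytosolic genes (range 5.68 to 85.8) and 8.08 for the mitochondrial genes (range 0.725 to 35.5), against 5.76 over the 14462 genes tested. Of the cytosolic genes, 18 of 19 were above that median, as were 9 of 16 mitochondrial genes. The highest cytosolic gene was FARSA, which encodes the catalytic subunit of phenylalanyl-tRNA synthetase, at 91.1, 89.6 and 68.8 FPKM in NC and 98.4, 90.5 and 76.3 FPKM in siPrp19. FARSB, which encodes the other subunit of the same enzyme, was lower in each library, at 30.6, 23.3 and 40.9 FPKM in NC and 35.7, 27.2 and 40.6 FPKM in siPrp19. SARS1, for serine, followed FARSA at 61.1, 75.3 and 75.1 FPKM in NC and 67.01, 80.7 and 78.4 FPKM in siPrp19. The ranges of FARSA and SARS1 overlapped, and so did those of SARS1 and AARS1. At the low end stood HARS1 (8.47 to 10.7 FPKM over all libraries), WARS1 (5.95 to 12.2 FPKM) and CARS1 (4.49 to 7.19 FPKM), for histidine, tryptophan and cysteine, with WARS1 overlapping both of the others. Their exon lengths over all transcripts are 7853, 6358 and 10037 bases. FPKM divides by that length, so the order of different genes also depends on it. By structural class, the median level of the cytosolic genes was 17.0 FPKM in class I and 40.7 FPKM in class II.

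**Figure D1:**
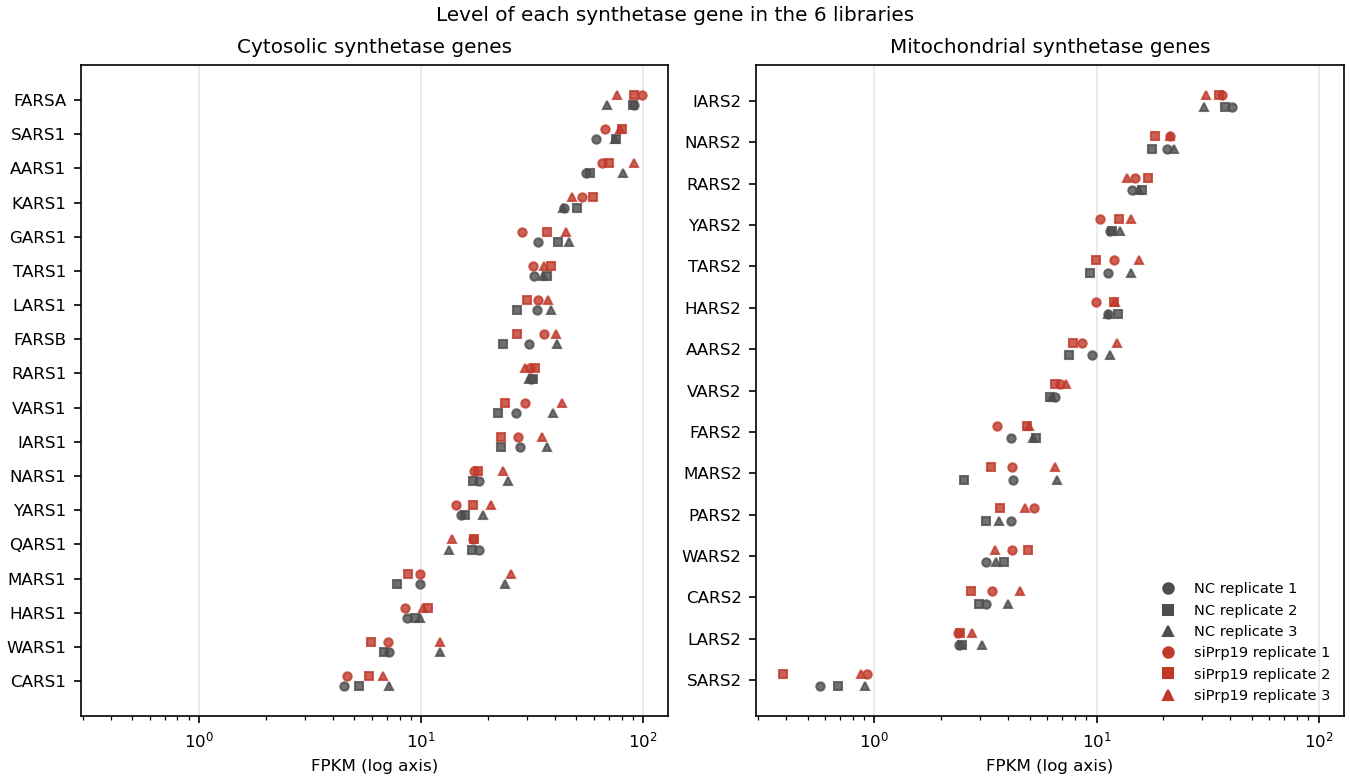
FPKM (log axis) of 18 cytosolic (left) and 15 mitochondrial (right) synthetase genes in each library, with NC in grey, siPrp19 in red and the replicate number given by the symbol; no mean or error is drawn. Genes are ordered by mean level, from FARSA at 85.8 to CARS1 at 5.68 FPKM and from IARS2 at 35.5 to SARS2 at 0.725 FPKM, and the grey and red symbols of a gene mostly overlap.

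Among mitochondrial genes the highest level was that of IARS2, for isoleucine, at 40.9, 37.7 and 30.6 FPKM in NC and 36.7, 35.5 and 31.2 FPKM in siPrp19. NARS2, for asparagine, ranged from 17.8 to 22.4 FPKM and RARS2, for arginine, from 13.8 to 17.1 FPKM. Thus IARS2 was above NARS2 in every library and NARS2 above RARS2 in every library. The lowest were CARS2 (2.72 to 4.52 FPKM), LARS2 (2.38 to 3.06 FPKM) and SARS2. SARS2, for mitochondrial serine, was at 0.568, 0.685 and 0.908 FPKM in NC and 0.926, 0.387 and 0.873 FPKM in siPrp19, which rests on 26 to 70 reads per library. Its mean was below the minimum of 1 FPKM set for the test, so 34 of the 35 genes were tested. GENCODE 29 places 46.2% of the exon length of SARS2 under another gene on the same strand and 10.8% under MRPS12 on the opposite strand, and reads in shared exons cannot be assigned from these files.

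Cytosolic and mitochondrial genes for the same amino acid were set side by side as ratios of FPKM. In 13 of 16 such pairs the cytosolic gene was higher in all 6 libraries, and the median ratio was 3.12 over 17 pairs when EPRS1 and PARS2, for proline, were added. FARS2 was paired with both FARSA and FARSB (ratio 7.08), so phenylalanine enters the count and the median through both subunits. The largest ratios of mean levels were those of SARS1 to SARS2 (100.7), FARSA to FARS2 (18.4), EPRS1 to PARS2 (14.7) and LARS1 to LARS2 (12.9). The ratio of SARS1 to SARS2 ranged from 72.3 to 208.6 over the libraries and is limited by the few reads and the shared exons of SARS2 given above. For 3 amino acids the mitochondrial gene was not the lower of the pair throughout. HARS2 was above HARS1 in every library, with ratios of HARS1 to HARS2 of 0.764, 0.756 and 0.876 in NC and 0.848, 0.889 and 0.838 in siPrp19. The genes share 437 bases of exon on opposite strands, 11.7% of the exon length of HARS2. The ratio of IARS1 to IARS2 was 0.684, 0.608 and 1.21 in NC and 0.741, 0.647 and 1.12 in siPrp19, and was thus above 1 only in the replicate 3 libraries. The ratio of NARS1 to NARS2 was likewise above 1 only in replicate 3, at 1.11 in NC and 1.09 in siPrp19. Such ratios depend on the exon length over all transcripts, which is 7853 bases for HARS1 and 3736 for HARS2. By recovered reads, HARS1 was above HARS2 in every library (1300 to 1984 against 818 to 1126 reads). IARS1 and NARS1 also held more reads than their mitochondrial partners in every library.

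**Figure D2:**
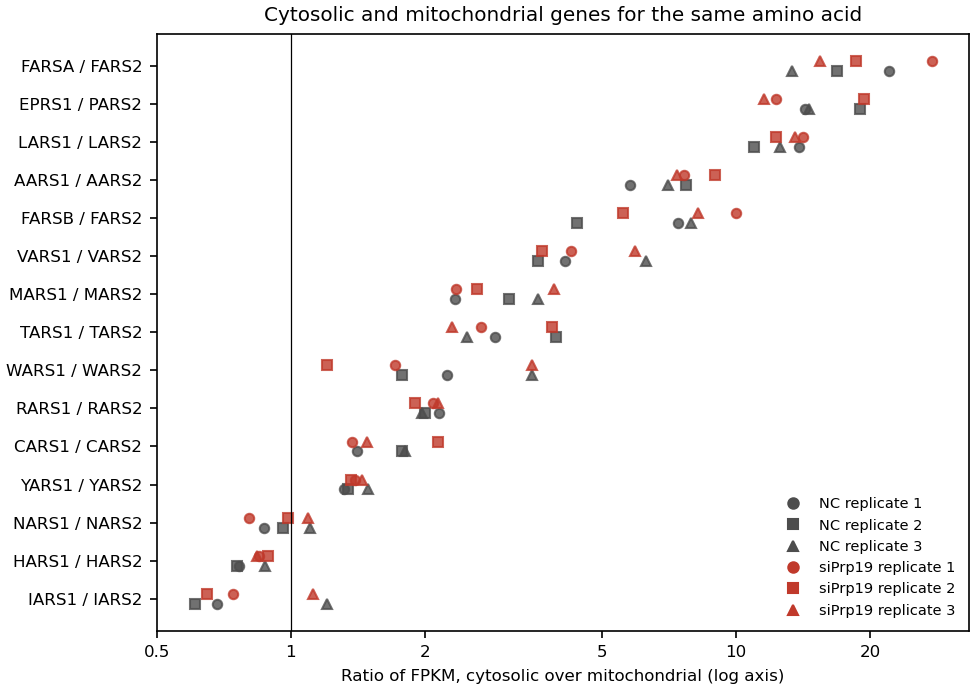
Ratio of FPKM, cytosolic over mitochondrial gene (log axis), for 15 pairs that serve the same amino acid, with 1 symbol per library, NC in grey and siPrp19 in red; SARS1 over SARS2 (100.7) is beyond the axis and not drawn. NARS1, HARS1 and IARS1 are the pairs with ratios of mean levels below 1 (0.973, 0.828 and 0.814), and the pair of HARS1 lies to the left of 1 in every library.

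The main comparison asked whether the synthetase genes differed between siPrp19 and NC cells. The log2 fold changes, siPrp19 minus NC on log2(FPKM + 0.1), had a median of 0.04 over the 19 cytosolic genes (range -0.14 to 0.23) and of 0.04 over the 15 tested mitochondrial genes (range -0.13 to 0.30), against -0.004 over all genes tested. Of the cytosolic genes 12 were above 0 and 7 below, and of the mitochondrial genes 10 and 5, while 49.0% of all genes tested were above 0. No synthetase gene passed a false discovery rate of 0.05 by limma with Benjamini-Hochberg adjustment (lowest adjusted p = 0.9999), where 0 of 14462 genes (0%) passed. The lowest adjusted p over all genes was also 0.9999 in this limma fit, so the targeted gene PRPF19 was not called either. The lack of a call here thus does not show that a gene was unchanged. At an unadjusted p under 0.05 limma called 0 of the 34 genes and 225 of all genes (1.56%), of which 88 were higher in siPrp19 (0.608%) and 137 lower (0.947%). In this fit, which has no block for the replicate number, 29 of the 34 differences were smaller than their standard error. Of the 34, 22 were within 0.1 of 0. The 95% intervals ran from -0.26 to 0.24 for RARS1, the narrowest, to -1.20 to 1.38 for MARS1, the widest, and the median standard error was 0.18. With a block for the replicate number the median standard error of the synthetase genes was 0.056. The median log2 fold changes moved when 1 library was left out, between -0.001 (without NC replicate 1) and 0.15 (without NC replicate 3) for the cytosolic genes and between -0.07 (without siPrp19 replicate 3) and 0.12 (without NC replicate 3) for the mitochondrial genes.

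Libraries with the same number deviated together, so the change was also read within the same-numbered pairs. The summed FPKM of the 19 cytosolic genes was 597, 609 and 676 in NC and 629, 646 and 703 in siPrp19. The siPrp19 sum was the higher in each pair, by 5.25%, 6.03% and 4.04%, though the groups overlapped. The summed FPKM of the 16 mitochondrial genes was 159.9, 147 and 168 in NC and 158, 151 and 174 in siPrp19, which is a change of -1.47%, 2.76% and 3.55%. The median pair differences on the log2 scale were -0.004, 0.10 and 0.04 for the cytosolic genes and 0.04, 0.08 and 0.10 for the mitochondrial genes, against -0.02, -0.004 and 0.009 over all genes. Changes of single tested genes within a pair ranged from -14.9% to 32.7%. Of the 34 genes, 9 were higher with siPrp19 in all 3 pairs (among them AARS1, FARSA, KARS1, PARS2, SARS1, TARS2, VARS1 and VARS2) against 19.2% of all genes, and 4 were lower in all 3 pairs (FARS2, GARS1, LARS2, WARS1) against 21.3%. With a block for the replicate number, 5 of the 34 (14.7%) were at an unadjusted limma p under 0.05, among them AARS1, KARS1, VARS1 and PARS2, all with higher levels in siPrp19. Over all genes this count was 2265 (15.7%), of which 997 were higher (6.89%). None of the 14462 genes (0%), PRPF19 included, passed the Benjamini-Hochberg adjustment in that limma fit. The lowest adjusted p was 0.196 for a synthetase gene (AARS1) and 0.190 over all genes. With the block and a minimum mean of 5 FPKM, limma called 124 genes after adjustment (1.57%) and 0 of the 28 synthetase genes left, of which 5 were at an unadjusted p under 0.05 (among them AARS1, KARS1, VARS1 and, lower in siPrp19, GARS1) against 20.5% of all genes.

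**Figure D3:**
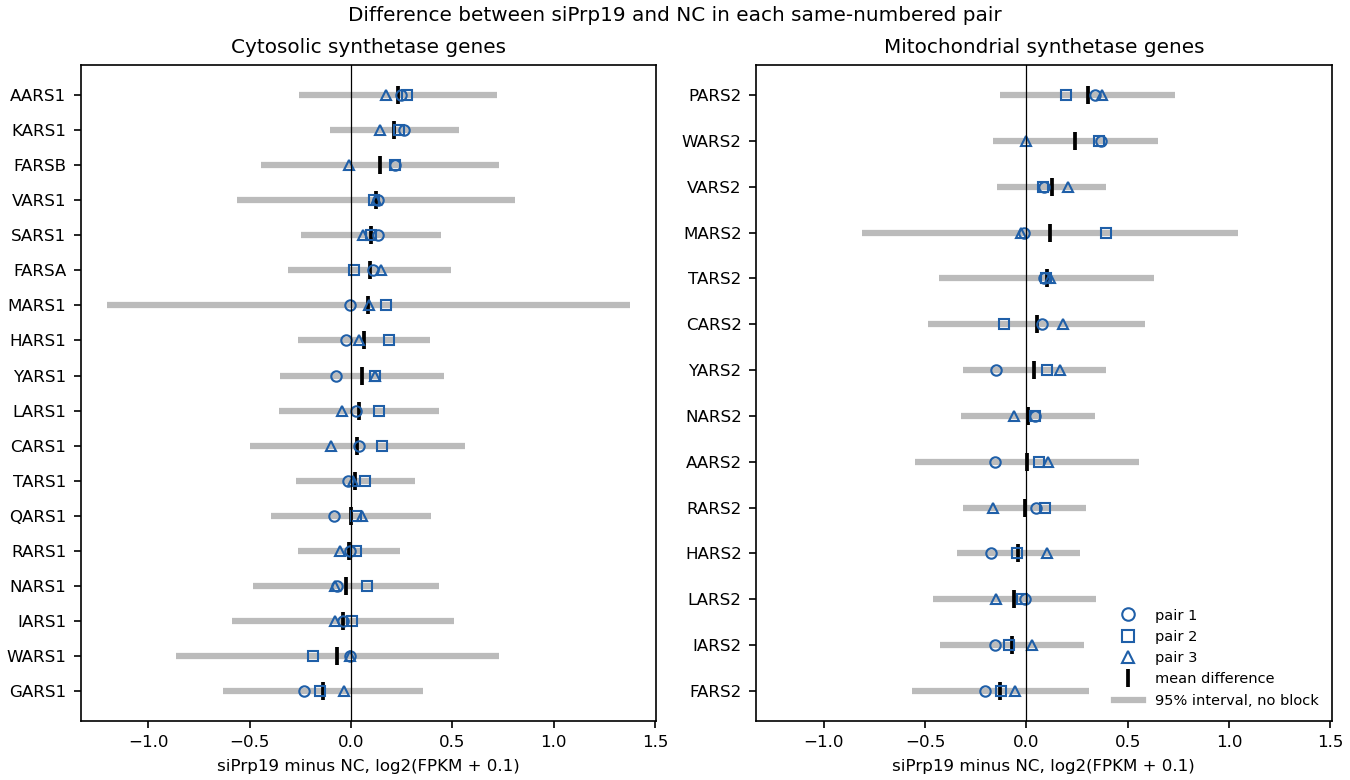
Difference between siPrp19 and NC on log2(FPKM + 0.1) for 18 cytosolic (left) and 14 mitochondrial (right) genes tested, with open symbols for the same-numbered pairs, a black bar for the mean and a grey bar for the 95% interval of limma with no block. Every grey bar crosses 0, and the pair symbols of AARS1, KARS1, VARS1 and PARS2 all lie to the right of 0.

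AARS1 (ENSG00000090861, chromosome 16 from 70252295 to 70289543, minus strand) encodes the alanyl enzyme. Its level was 55.2, 57.8 and 81.1 FPKM in NC and 65.5, 70.0 and 91.4 FPKM in siPrp19. Each siPrp19 library was above its NC partner, by 18.8%, 21.0% and 12.7%, while NC replicate 3 exceeded the siPrp19 libraries 1 and 2. The log2 fold change was 0.23 ± 0.20 (SE, n = 3 per group) with an adjusted p of 0.9999 by limma with Benjamini-Hochberg adjustment. It was 0.09 without siPrp19 replicate 3 and 0.41 without NC replicate 3. When limma with voom weights was fitted to the recovered reads under the same block, AARS1 was among 378 genes called higher (2.62% of 14432), with an adjusted p of 0.00493.

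KARS1 (ENSG00000065427, chromosome 16 from 75627474 to 75648643, minus strand) encodes the lysyl enzyme of both compartments and belongs to the multisynthetase complex. It was at 44.1, 50.5 and 43.5 FPKM in NC and at 52.9, 59.5 and 48.0 FPKM in siPrp19. The siPrp19 library was the higher in each pair, by 19.8%, 17.7% and 10.4%, and the groups overlapped through NC replicate 2. The log2 fold change was 0.21 ± 0.13 (SE, n = 3 per group), with an adjusted p of 0.9999 by limma and of 0.0124 by voom with the replicate block. It was 0.13 without siPrp19 replicate 2 and 0.29 without siPrp19 replicate 3. AARS1 and KARS1 were the synthetase genes called in that fit (2 of 34), and 0 of 34 were called lower, against 634 of all genes (4.39%), out of 1012 called in either direction (7.01%). At an unadjusted p under 0.05 the same fit held 8 synthetase genes, the 5 counted with the block and FARSB, WARS2 and GARS1, against 20.6% of all genes. Without the block, voom called 0 of 14432 genes (0%) after adjustment and 198 (1.37%) at an unadjusted p under 0.05.

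Other cytosolic genes gave smaller or less even differences. VARS1, the valyl enzyme, was at 26.7, 22.1 and 39.4 FPKM in NC and 29.3, 24.0 and 43.0 FPKM in siPrp19, so that the pairs differed by 9.63%, 8.40% and 8.94% while the libraries within a group differed far more. GARS1 (ENSG00000106105), the glycyl enzyme, had the lowest log2 fold change of all tested synthetase genes, at -0.14 ± 0.21 (SE, n = 3 per group). Its level was 33.5, 41.2 and 46.1 FPKM in NC and 28.5, 37.0 and 45.1 FPKM in siPrp19, lower in each pair and overlapping between the groups. RARS1, the arginyl enzyme, varied least, between 29.4 and 32.5 FPKM over all 6 libraries. Of the 7 cytosolic genes of the multisynthetase complex, 3 had a log2 fold change above 0 and 4 below, with a median within 0.001 of 0 and KARS1 as the highest.

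The largest log2 fold change was that of the mitochondrial prolyl gene PARS2 (ENSG00000162396, chromosome 1 from 54756898 to 54764514, minus strand), at 0.30 ± 0.18 (SE, n = 3 per group). Its level was 4.10, 3.19 and 3.64 FPKM in NC and 5.21, 3.67 and 4.74 FPKM in siPrp19. Each siPrp19 library was above its NC partner, by 27.1%, 14.9% and 30.2%, and siPrp19 replicate 2 lay within the NC range. The gene rests on 132 to 278 reads per library, and its log2 fold change was 0.20 without siPrp19 replicate 1 and 0.44 without siPrp19 replicate 2. The adjusted p was 0.9999 by limma with no block, 0.213 with the replicate block and 0.123 by voom with the replicate block. WARS2, for tryptophan, was at 3.18, 3.82 and 3.51 FPKM in NC and 4.14, 4.93 and 3.50 FPKM in siPrp19, higher in pairs 1 and 2 by 30.2% and 28.8% and level in pair 3, and its log2 fold change was 0.12 without siPrp19 replicate 2 and 0.36 without siPrp19 replicate 3.

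VARS2 (ENSG00000137411, chromosome 6 from 30908242 to 30926459, plus strand), for mitochondrial valine, was the synthetase gene whose groups did not overlap. It was at 6.47, 6.16 and 6.29 FPKM in NC and at 6.87, 6.53 and 7.26 FPKM in siPrp19, with means of 6.31 ± 0.156 and 6.89 ± 0.366 FPKM (SD, n = 3 per group). All siPrp19 libraries were above all NC libraries (exact two-sided permutation p = 0.1, the smallest this design allows), which is 1 of 34 genes against 400 of 14462 (2.77%). No synthetase gene had all siPrp19 libraries below all NC libraries, against 2.84% of all genes. GTF2H4 on the same strand covers 22.0% of the exon length of VARS2. FARS2, for mitochondrial phenylalanine, was at 4.13, 5.31 and 5.16 FPKM in NC and 3.58, 4.87 and 4.96 FPKM in siPrp19, lower in each pair and overlapping.

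The synthetase genes also differed between libraries by replicate number. Both replicate 3 libraries were above the other 4 libraries in 18 of the 34 genes (52.9%) against 25.1% of all genes, and below the other 4 in 5 genes (among them FARSA, QARS1, RARS1 and IARS2) against 23% of all genes. Of the 18, 11 were cytosolic (AARS1, CARS1, FARSB, GARS1, IARS1, LARS1, MARS1, NARS1, VARS1, WARS1, YARS1) and 7 mitochondrial (among them AARS2, CARS2, LARS2, MARS2, TARS2 and YARS2). Within each group, replicate 3 minus the mean of replicates 1 and 2 had a median log2 difference of 0.31 in NC and 0.36 in siPrp19 for the cytosolic genes, of 0.14 and 0.18 for the mitochondrial genes, and of 0.01 and 0.02 for all genes. Its sign was the same in both groups for all 19 cytosolic genes and differed for 4 mitochondrial ones (RARS2, HARS2, VARS2, WARS2). Both replicate 2 libraries were below the other 4 in 12 genes (20.3% of all genes) and above them in 4 (24.3%). Both replicate 1 libraries were below the other 4 in 10 genes (11.3% of all genes) and above them in 1, FARSA (7.99%). The labels do not say what the replicate number marks, and its part in these differences was not tested.

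**Figure D4:**
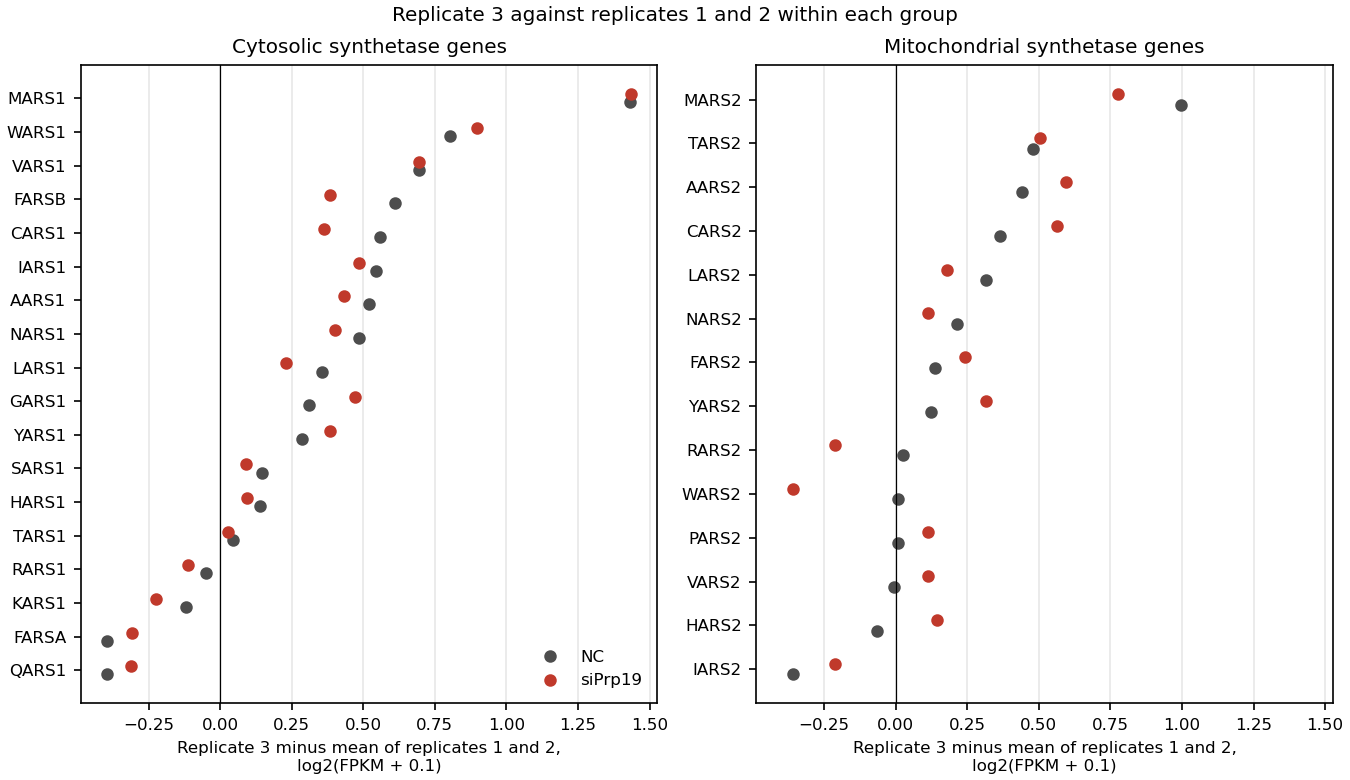
Replicate 3 minus the mean of replicates 1 and 2 on log2(FPKM + 0.1) for 18 cytosolic (left) and 14 mitochondrial (right) genes tested, in NC (grey) and in siPrp19 (red), with 1 point per group and no error. MARS1 is farthest to the right in both groups (1.43 and 1.44), and the points of the groups lie close together for most genes.

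MARS1 (ENSG00000166986, chromosome 12 from 57475445 to 57517569, plus strand), which encodes the methionyl enzyme, had the widest range. It was at 9.87, 7.77 and 23.8 FPKM in NC and at 9.84, 8.77 and 25.3 FPKM in siPrp19, so that replicate 3 was 2.70 times the mean of the other libraries in both groups. Its exons overlap those of DDIT3 and ARHGAP9 on the opposite strand over 5.05% and 7.38% of its exon length, and DDIT3 was lowest in the replicate 3 libraries (12.1 and 12.3 FPKM, against 14.1 to 25.2 FPKM in the others). Its mitochondrial partner MARS2 was at 4.22, 2.52 and 6.61 FPKM in NC and 4.18, 3.35 and 6.49 FPKM in siPrp19, again highest in replicate 3. WARS1, the tryptophanyl enzyme, was at 7.14, 6.79 and 12.2 FPKM in NC and 7.10, 5.95 and 12.2 FPKM in siPrp19. With VARS1, these were among the 5 genes in which replicate 3 was over 1.5 times the other libraries in both groups, as were 6.12% of all genes. Within the multisynthetase complex the replicate 3 libraries were highest for IARS1, LARS1 and MARS1 and lowest for QARS1 and RARS1, among others. Of the 6 cytosolic genes with an ATF4-C/EBP element in the promoter, 5 (AARS1, CARS1, IARS1, MARS1, NARS1) were among those highest in both replicate 3 libraries, and TARS1 was not, beside 11 of all 19 cytosolic genes (57.9%) and 25.1% of all genes.

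Synthetase genes outside the symbol pattern and the partners of the enzymes were read in the same fits. EPRS1, the glutamyl-prolyl enzyme, was at 58.5, 60.7 and 53.1 FPKM in NC and 64.1, 71.1 and 54.7 FPKM in siPrp19, EARS2 lay between 8.94 and 10.1 FPKM, and TARS3 lay between 4.26 and 6.01 FPKM. All 3 were lowest in both replicate 3 libraries, against 5 of the 34 genes of the pattern and 23% of all genes. Of these 3 genes, 0 passed the limma adjustment with or without the block. The scaffold gene AIMP2 was highest in replicate 3 (22.4 and 22.9 FPKM, against 10.96 to 13.7 FPKM in the others), as was EEF1E1 (4.97 and 3.94 FPKM, against 2.18 to 3.11 FPKM), and 0 of 3 scaffold genes were called. The 4 genes of the mitochondrial amidotransferase and formyltransferase, the 4 selenocysteine tRNA enzymes, the 3 proofreading enzymes and the 3 genes of uncharged tRNA sensing gave 0 calls after adjustment in either direction. Of 8 elongation factor genes, 7 were tested and 0 called, while EEF1G was listed at 0 in all 6 libraries. Both replicate 3 libraries were below the other 4 in 4 of the 7 (EEF1A1, EEF1A2, EEF1B2, EEF1D) against 23% of all genes. They were above the other 4 in 2 (GFM1, TSFM) against 25.1%. TUFM, the mitochondrial elongation factor that carries charged tRNA, was at 79.0, 79.3 and 80.2 FPKM in NC and 84.8, 85.2 and 90.4 FPKM in siPrp19. Its groups did not overlap, as in 2.77% of all genes with siPrp19 higher, and its adjusted p was 0.166 by voom with the replicate block.

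ATF4 and its known targets were examined as the regulatory program most tied to synthetase genes. The 23 tested genes of 24 had a median log2 fold change of 0.03, with 16 above 0 and 7 below, and 0 passed the limma adjustment with no block. By voom with the replicate block 3 were called higher in siPrp19, against 2.62% of all genes, which are the stress gene DDIT4, PCK2 and PHGDH. In the same fit 3 were called lower, against 4.39% of all genes, which are the cystine transporter gene SLC7A11, the serine synthesis gene PSAT1 and STC2. SLC7A11 was at 3.55, 6.03 and 9.45 FPKM in NC and 1.67, 4.48 and 6.67 FPKM in siPrp19, lower in each pair (adjusted p = 2.62e-05 by voom with the replicate block). PHGDH was at 27.8, 26.3 and 32.3 FPKM in NC and 32.6, 29.4 and 35.2 FPKM in siPrp19, higher in each pair (adjusted p = 0.0378 by the same test). The targets did not share 1 order by replicate number. Both replicate 3 libraries were above the others in 8 of 23 (ASNS, ATF5, CHAC1, PCK2, PSAT1, PYCR1, SLC7A11, TRIB3) against 25.1% of all genes, and below them in 6 (ALDH18A1, DDIT3, DDIT4, SHMT2, STC2, VLDLR) against 23% of all genes. Both replicate 1 libraries were below the others in 10 of 23 (43.5%) against 11.3% of all genes, and both replicate 2 libraries were above them in 10 of 23 (43.5%) against 24.3%. ATF4 itself was at 159, 239 and 161 FPKM in NC and 149.7, 243 and 174 FPKM in siPrp19, with the highest level in replicate 2 of both groups.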

How the data were processed

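Total RNA of 6 SK-N-BE(2) samples was sequenced with the NEBNext Ultra kit. The authors deposited 1 table of FPKM per sample. The submitters' processing notes name HISAT2 2.0.5, featureCounts 1.5.0-p3 and hg38, and whether counting used strand is not given in the sources used here. After median-of-ratios scaling, whose factors did not differ between samples, log2(FPKM + 0.1) was taken. Genes whose mean reached 1 FPKM (14462) were tested with limma 3.58.1 (R 4.3.3, trend, Benjamini-Hochberg), and single genes also with an exact two-sided permutation test of the mean FPKM. FPKM times exon length in GENCODE 29 gave whole reads (within 0.05 read or 0.01%) in all 6 samples for 96.1% of 37521 genes with reads, and these reads were tested with limma voom as an alternative.

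Same-numbered samples deviated jointly from their group means (r = 0.381, 0.568 and 0.640, against at most 0.045 between other numbers). The labels give the number without saying what it marks, so the pairing comes from the data, and fits with the number as a block are given beside the main result. Reads per library for a tested synthetase gene ranged from 132 to 10198, and depth limits counting error only. The fits were tested on simulated data whose spread and changes were set in advance. At a false discovery rate of 0.05 the fit with no block called 109 of 188 changed genes (58.0%) and 3 unchanged ones. The fit with the replicate block called 173 of 188 (92.0%) and 10 unchanged ones. In the deposited data both fits called 0 of 14462 genes. The share called among differences as small as those of the synthetase genes (at most 0.30 on the log2 scale) was not tested.

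The synthetase genes, the other lists and the motifs were chosen with earlier results of these data known. Text values per sample were given for genes without overlap between groups, with the lowest and highest fold change or level, for partners of the same amino acid, and for genes called with the block, most apart by replicate number or of interest in the listed pathways, which were picked after their values were seen. Single values of 2 of the 35 genes are not reported here, though counts, medians and sums include them. Alternatives were a pseudocount of 1, no filter, a minimum of 5 FPKM, TPM, quantile normalization, unscaled FPKM, the replicate block, voom, and leaving out each library. Unscaled FPKM could hardly change a result, since the scaling factor was 1.007 in each library.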

Additional observations from a re-analysis of the deposited data

How the results depend on the processing

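No setting tried gave a limma call for a synthetase gene except voom with the replicate block (AARS1, KARS1). Calls over all genes after adjustment numbered 1012 by voom with the replicate block, 124 with the block and a minimum of 5 FPKM, and 0 with the block alone. At an unadjusted p under 0.05 these fits held 8, 5 and 5 synthetase genes, against 20.6%, 20.5% and 15.7% of all genes. Among the synthetase genes the pairing through the replicate block changed no other call after adjustment. With a minimum of 5 FPKM the mitochondrial median log2 fold change was 0.0058, with and without the block. Leaving out 1 library left 0 calls over all genes and 0 to 1 synthetase gene at an unadjusted p under 0.05. It moved the cytosolic median from -0.0013 to 0.147 and the mitochondrial median from -0.0676 to 0.122. A fit without 1 library is unpaired and assumes that both groups vary alike.

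Direction was kept under every setting that tested them by AARS1, KARS1, VARS2, PARS2 and WARS2, of which PARS2 and WARS2 are under the minimum of 5 FPKM and have no value there. Leaving out 1 library moved them between 0.0878 and 0.405, 0.133 and 0.288, 0.0853 and 0.161, 0.196 and 0.444, and 0.120 and 0.361. In the other settings that keep all libraries it turned for QARS1 (0.0043 with TPM, 0.0100 with quantile normalization) and RARS1 (0.0020 with quantile normalization), and the cause was not tested. Leaving out 1 library turned the sign of the log2 fold change of 27 of the 32 genes reported singly, with these lowest and highest values. Cytosolic genes reached -0.0393 to 0.194 for FARSA, -0.0013 to 0.180 for SARS1, -0.297 to 0.0323 for GARS1, -0.0394 to 0.0928 for TARS1, -0.0916 to 0.158 for LARS1, -0.0572 to 0.347 for FARSB, -0.0455 to 0.0267 for RARS1, -0.108 to 0.356 for VARS1 and -0.201 to 0.142 for IARS1. They further reached -0.158 to 0.139 for NARS1, -0.0733 to 0.182 for YARS1, -0.132 to 0.104 for QARS1, -0.393 to 0.563 for MARS1, -0.0015 to 0.165 for HARS1, -0.365 to 0.201 for WARS1 and -0.116 to 0.218 for CARS1. Mitochondrial genes reached -0.192 to 0.0172 for IARS2, -0.0878 to 0.0823 for NARS2, -0.0935 to 0.0606 for RARS2, -0.0669 to 0.161 for YARS2, -0.0676 to 0.260 for TARS2, -0.0881 to 0.0512 for HARS2, -0.195 to 0.1499 for AARS2, -0.240 to 0.0206 for FARS2, -0.228 to 0.450 for MARS2, -0.138 to 0.218 for CARS2 and -0.124 to 0.0448 for LARS2.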
